A study of Mus musculus with 6 samples.

Results

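The genes described here belong to families of channels, pumps and exchangers that carry calcium across the plasma membrane. They were taken by gene name from the deposited count table: voltage-gated calcium channel subunits (Cacna, Cacnb and Cacng genes), TRPC, TRPV and TRPM channels, Piezo channels, P2X receptors, Atp2b pumps, and the Slc8a and Slc24a exchangers. The name rule used no measured value and found 70 protein-coding genes among 54532 rows, of which 22046 are protein-coding. Of the 70, 56 belong to families of calcium entry (40 pore-forming subunits and 16 auxiliary subunits) and 12 to families of calcium extrusion. Trpm4 and Trpm5, channels that calcium opens but that pass sodium and potassium, are counted among the 40 with their family; neither passed the test. The other 2, Trpc4ap and Trpc5os, match by name but are not channels: Trpc4ap is an adaptor protein, and Trpc5os is a transcript opposite Trpc5.

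Bulk RNA-seq was done on NIT-1 cells, a mouse insulinoma line that the labels call a beta cell. In the EV_Tm group (n = 3), cells were given hucMSC-EVs, vesicles shed by mesenchymal stem cells of human umbilical cord, during 16 h before 8 h of Tm. In the PBS_Tm group (n = 3), PBS replaced the vesicles and the same 8 h of Tm followed. Tm is read here as tunicamycin, which blocks N-glycosylation and causes endoplasmic reticulum (ER) stress; the labels give only the abbreviation. One label calls the PBS_Tm samples untreated, whereas their titles name ER stress and the design text puts Tm in both arms. All libraries compared here therefore carry Tm by the design text, NIT-1 is a single line, and no library without Tm was analysed here. Nothing in the labels tells separate cultures from repeat samples of 1 culture, so p-values measure a spread that may be technical.

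As background, free calcium is kept far lower inside a cell than outside. Voltage-gated channels open on depolarisation, and in beta cells the calcium that enters through them triggers insulin secretion; TRP channels, Piezo channels and ATP-gated P2X receptors admit calcium with other cations. Plasma membrane calcium ATPases (the Atp2b genes) pump calcium out at the cost of ATP. Most of the Slc8a and Slc24a exchangers drive it out with the sodium gradient.

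Libraries held between 28654248 and 32550268 counts, and a gene with no count could still stand at up to 3 counts, or 0.0931 to 0.103 CPM (counts scaled to a library size of 1e6 after TMM). All 10 genes of an unfolded protein response list were lower in EV_Tm, with a median log2 fold change of -2.83; the chaperone Hspa5 went from 10003 to 951 CPM and the stress transcription factor Xbp1 from 187 to 52.1 CPM. None of 20 beta cell markers had enough counts to be tested, 12 of them had no count, Ins2 was at 0 in every library and Ins1 held 1 count in all, so the labelled cell type was not visible in its defining markers. The list summed to 0.530 to 1.10 CPM in PBS_Tm and 0.372 to 1.31 CPM in EV_Tm libraries. A list of other islet and exocrine genes summed to 2073 to 2161 CPM in PBS_Tm and 3004 to 3099 CPM in EV_Tm. Most of it came from Spp1, and 3 of 5 tested genes rose: Spp1, Sox9 and Cela1. Sox9 had means of 62.3 CPM in PBS_Tm and 80.6 CPM in EV_Tm, and Cela1 of 27.05 and 32.06 CPM. Sst, Krt19, Prss2, Cpa1 and Amy2a5 were at 0. Mesenchymal markers summed to 663 to 680 CPM in PBS_Tm and 724 to 776 CPM in EV_Tm, mostly from Vim (means 620 and 694 CPM). Acta2 was at 0, and of 8 tested genes 3 were higher and 2 lower. Immune and endothelial markers summed to 36.2 to 37.2 CPM in PBS_Tm and 35.6 to 36.5 CPM in EV_Tm, mostly from Pecam1. Pecam1 had means of 28.4 and 24.5 CPM, and of 4 tested genes 1 was higher and 1 lower. Over all genes tested, 22.6% were higher and 24.7% lower. The part of these lists in the results that follow was not tested.

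Which of the calcium genes the cells expressed was decided by a filter on low counts (edgeR's filterByExpr), and 36 of the 70 (51.4%) passed it. All 70 together held 0.165% of the counts. The other 34 held at most 23 counts in any library (Cacna1s, in PBS_Tm replicate 2), and 12 of the 70 had no count in any library. A mean of 1 CPM in either group was reached by 3 of 10 voltage-gated pores (Cacna1a, Cacna1c and Cacna1h), 1 of 6 TRPV genes (Trpv2), 5 of 8 TRPM genes, 5 of 7 P2X receptors and 3 of 4 pumps (Atp2b1, Atp2b3 and Atp2b4). All 7 TRPC genes, channels that open downstream of phospholipase C, stayed at 8 counts or fewer in every library; Trpc2 shares 97.5% of its exon bases with Xntrpc on the same strand, so its 0 is uncertain. The neuroendocrine pores Cacna1d and Cacna1e, L-type and R-type channels known from beta cells, reached at most 6 and 2 counts, and Cacna1b, the N-type pore, had none. The sodium-calcium exchanger Slc8a1 reached at most 4 counts, but the deposited length for it was 2934 bases, against 18807 exon bases in GENCODE M21. The remaining untested pores Cacna1f and Cacna1i reached at most 5 and 4 counts. Untested auxiliary subunits reached 9 (Cacng2), 8 (Cacnb2), 4 (Cacna2d4) and 2 (Cacng1), with Cacng3, Cacng4 and Cacng5 at 0. Trpv1 reached 4 counts, Trpm2, Trpm6 and Trpm8 1, 6 and 2, P2rx2 14 and Slc24a3 2, while Trpv5, Trpv6, Slc24a2 and Slc24a4 had none; Trpc5os reached 12. In bulk samples, fewer cells of a type and less RNA per cell cannot be told apart.

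**Figure D1:**
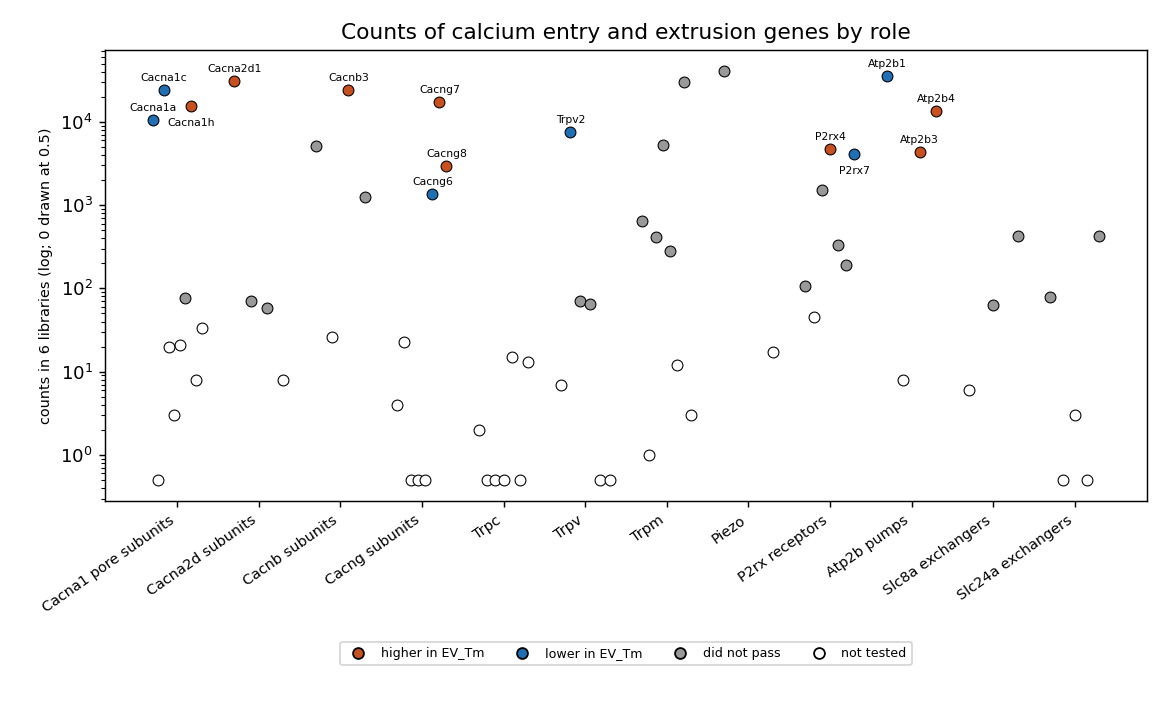
Counts summed over the 6 libraries (log axis, zero drawn at 0.5) for each calcium entry or extrusion gene, arranged by role; Trpc4ap and Trpc5os are not drawn. Filled points mark genes higher in EV_Tm, lower in EV_Tm or not past the test, and open points mark the genes too low to test, which lie below the tested ones.

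Between the groups, 14 of the 36 tested genes changed at an adjusted p under 0.05 (edgeR quasi-likelihood test, Benjamini-Hochberg adjustment over 16844 genes), 8 higher and 6 lower in EV_Tm. That share, 38.9%, stood beside 47.4% of all genes tested, of which 22.6% were higher and 24.7% lower. Among the 28 with a mean of at least 1 CPM in a group, 14 changed, beside 54.2% of all such genes (25.4% higher and 28.8% lower). The median log2 fold change was -0.03 over the 36 genes and 0.01 over all genes tested. Groups did not overlap for 19 of the 36 (52.8%), beside 54.5% of all genes tested. Folds were moderate: the changed genes moved between 1.1-fold and 1.93-fold, and none passed both the test and a 2-fold minimum, beside 5.97% of all genes tested. At an unadjusted p under 0.05, a 2-fold difference was reached by 1 gene with edgeR (Cacna2d2), 0 with DESeq2 and 3 with limma-voom (Cacna1g, Cacna2d2 and Trpv4), all 3 under 1 CPM in both groups. Entry genes split into 6 higher, 5 lower and 17 that did not pass, and extrusion genes into 2 higher, 1 lower and 4 that did not pass. By position in the channel, pore-forming entry genes gave 2 higher, 4 lower and 13 that did not pass, and auxiliary subunits 4 higher, 1 lower and 4 that did not pass.

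**Figure D2:**
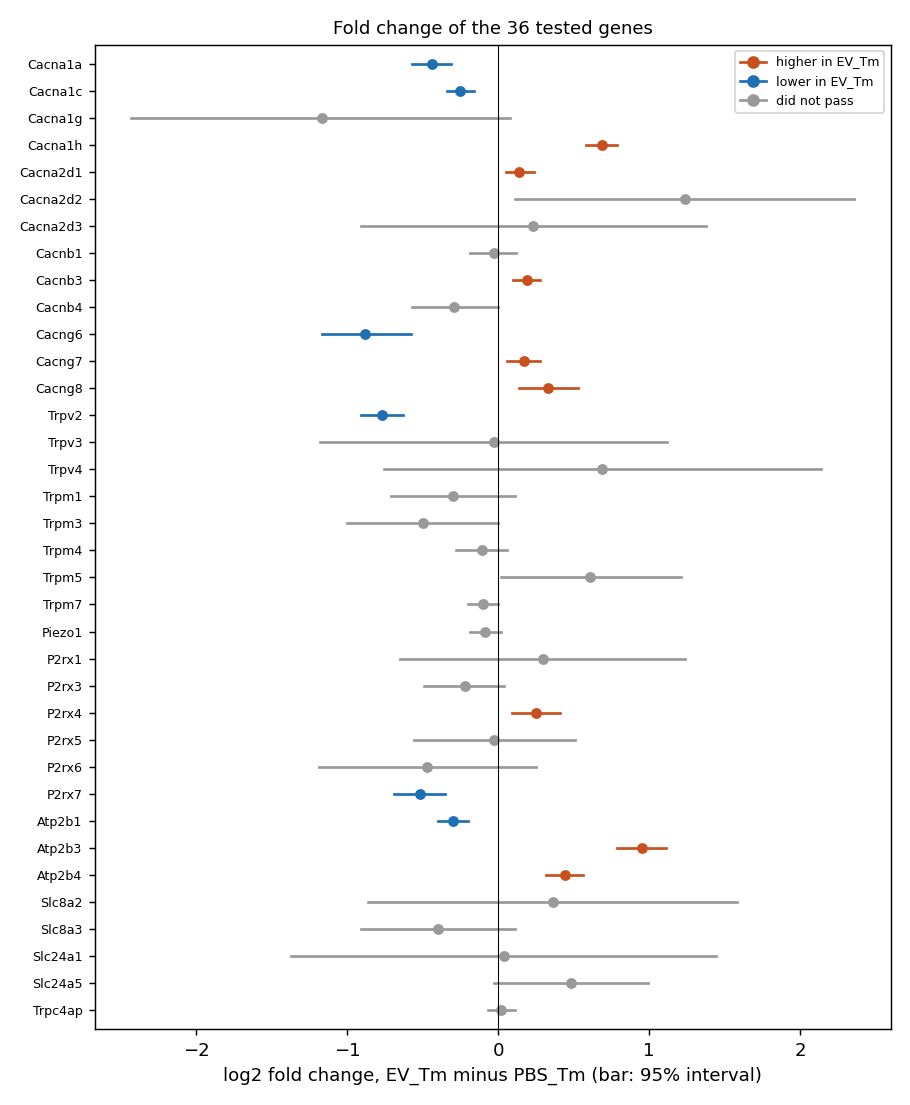
Log2 fold change (EV_Tm minus PBS_Tm) of the 36 tested genes with 95% intervals from the edgeR fit, coloured by call. Atp2b3 (0.95) and Cacna1h (0.69) lie highest among the genes that passed and Cacng6 (-0.88) and Trpv2 (-0.77) lowest, and the widest intervals belong to genes with few counts.

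The 3 expressed voltage-gated pores did not move together: the T-type pore Cacna1h rose, while the L-type pore Cacna1c and the P/Q-type pore Cacna1a fell. Cacna1h (chr17:25374285-25433783), whose channel opens at low voltage, was at 67.2, 61.0 and 64.4 CPM in PBS_Tm and 101.7, 106.5 and 101.6 CPM in EV_Tm. Every EV_Tm library lay above every PBS_Tm library, a rise of 1.61-fold (log2 fold change 0.69 ± 0.05 SE, edgeR adjusted p = 4.18e-11). Cacna1c (chr6:118587240-119196418) was at 141.7, 136.0 and 147.0 CPM in PBS_Tm and 120.2, 119.7 and 116.7 CPM in EV_Tm. These groups were apart as well, in the other direction (log2 fold change -0.25 ± 0.04 SE, edgeR adjusted p = 4.83e-05). Cacna1a (chr8:84388440-84640246) was at 67.4, 61.6 and 63.0 CPM in PBS_Tm and 43.2, 49.6 and 49.0 CPM in EV_Tm. All 3 EV_Tm libraries were lower, by -0.44 ± 0.06 on the log2 scale (edgeR adjusted p = 2.23e-06); an antisense gene, Gm16183, shares 3.81% of its exon bases and itself had a log2 fold change of -0.04 that did not pass (edgeR adjusted p = 0.846). The fourth tested pore, Cacna1g, also T-type, was under 1 CPM in both groups and did not pass (log2 fold change -1.17, edgeR adjusted p = 0.119).

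Set per kilobase of exon, so that genes can be compared, Cacna1c and Cacna1h stood level in PBS_Tm, at 6.68 ± 0.26 and 6.57 ± 0.32 CPM per kb (SD, n = 3), with Cacna1a at 5.61 ± 0.26. In EV_Tm, Cacna1h stood at 10.6 ± 0.28 CPM per kb, Cacna1c at 5.61 ± 0.09 and Cacna1a at 4.14 ± 0.31. As a share of the summed CPM per kb of the pores, Cacna1h went from 34.6% ± 0.5 to 51.9% ± 0.5, Cacna1c from 35.2% ± 1.1 to 27.5% ± 0.8, and Cacna1a from 29.5% ± 0.6 to 20.3% ± 1.1 (SD, n = 3). The sum itself was 19.0 ± 0.7 CPM per kb in PBS_Tm and 20.4 ± 0.5 in EV_Tm. Shares, sums and ratios are given as descriptions and were not tested. The order between genes depends on the deposited gene length, which is read here as exon length. For Slc8a1 and Trpm3 that length was 2934 and 8061 bases, against 18807 and 24437 exon bases in GENCODE M21. The change of a gene between groups does not depend on the length.

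Auxiliary subunits set the trafficking and gating of the pores. Cacnb3, a beta subunit that binds the pore on its cytoplasmic side, was at 121.2, 120.2 and 119.5 CPM in PBS_Tm and 134.5, 141.9 and 135.9 CPM in EV_Tm. It was higher in all 3 EV_Tm libraries than in any PBS_Tm library, by a small, tightly measured amount (log2 fold change 0.19 ± 0.04 SE, edgeR adjusted p = 0.000742). Cacnb1, from the same family, was at 27.8, 26.5 and 28.7 CPM in PBS_Tm and 28.2, 25.7 and 27.2 CPM in EV_Tm. These groups overlapped, and the difference did not pass (log2 fold change -0.03, 95% interval -0.19 to 0.12, edgeR adjusted p = 0.753). Cacnb3 held 81.2% ± 0.6 of the beta subunits' summed CPM per kb in PBS_Tm and 83.8% ± 1.1 in EV_Tm. Cacnb4 did not pass (log2 fold change -0.29, edgeR adjusted p = 0.0976), and A430018G15Rik, on the opposite strand, shares 16% of its exon bases.

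Cacna2d1, an alpha2delta subunit that raises the number of channels at the membrane, was at 149.7, 152.4 and 164.1 CPM in PBS_Tm and 173.8, 174.2 and 167.3 CPM in EV_Tm. The groups were apart by a narrow margin, 1.1-fold (log2 fold change 0.14 ± 0.04 SE, edgeR adjusted p = 0.00983). This call did not survive leaving out EV_Tm replicate 1 (edgeR adjusted p = 0.0536), EV_Tm replicate 2 (0.0645) or PBS_Tm replicate 2 (0.0591). Cacna2d2 and Cacna2d3 were both under 1 CPM and did not pass (log2 fold changes 1.24 and 0.23).

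The gamma family holds Cacng6, a subunit of voltage-gated channels, and Cacng7 and Cacng8, which belong to the TARP group that also accompanies AMPA-type glutamate receptors. All 3 expressed members lie in a row on chromosome 7, on one strand, with 22461 bases between Cacng7 and Cacng8 and 8546 bases between Cacng8 and Cacng6. Cacng6 (chr7:3424195-3435667) was at 8.32, 10.8 and 9.11 CPM in PBS_Tm and 4.62, 4.72 and 5.99 CPM in EV_Tm. Every EV_Tm library lay below every PBS_Tm library, and the log2 fold change of Cacng6 was -0.88 ± 0.14 SE (edgeR adjusted p = 1.8e-05). Cacng8 (chr7:3390683-3415648) was at 15.1, 12.8 and 14.3 CPM in PBS_Tm and 17.7, 17.3 and 18.3 CPM in EV_Tm, a rise of 0.33 ± 0.09 on the log2 scale (with its SE; edgeR adjusted p = 0.00469). Cacng7 (chr7:3332955-3368221), the highest of the calcium genes per kilobase at 35.5 CPM per kb in PBS_Tm, was at 91.7, 84.4 and 83.8 CPM in PBS_Tm and 93.2, 98.4 and 100.8 CPM in EV_Tm. Its rise was small (log2 fold change 0.17 ± 0.05 SE, edgeR adjusted p = 0.00766) and was not called without EV_Tm replicate 3 (0.0586) or PBS_Tm replicate 2 (0.0541). Neighbours thus moved in opposite directions: the ratio of Cacng8 to Cacng6 in CPM per kb was 1.53, 1.01 and 1.33 in PBS_Tm and 3.23, 3.08 and 2.58 in EV_Tm.

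**Figure D3:**
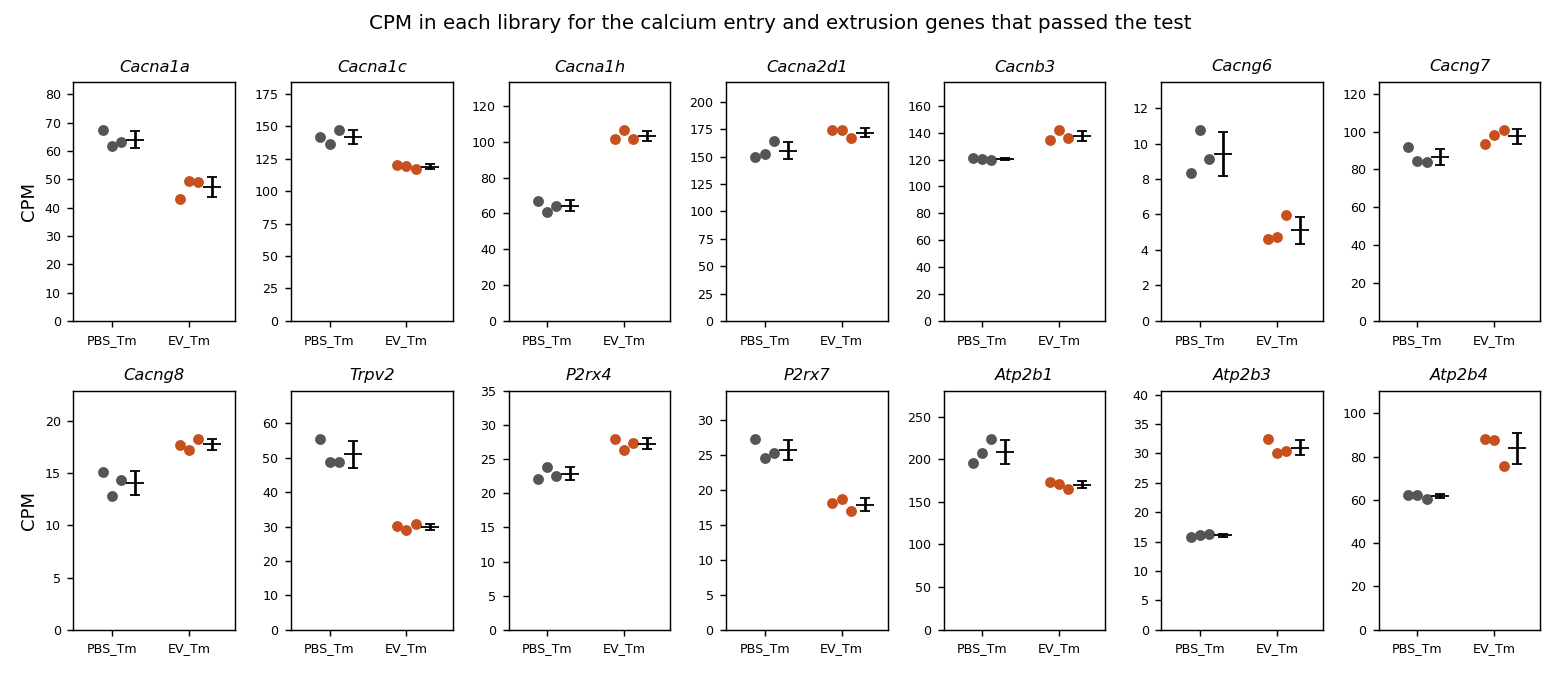
CPM in each library (points) with the group mean and SD (n = 3) for the calcium entry and extrusion genes that passed the test. The 3 EV_Tm libraries lie wholly above or wholly below the 3 PBS_Tm libraries in every panel, widely for Atp2b3 and narrowly for Cacna2d1 and Cacng7.

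Among TRP channels, Trpv2 was the only gene to pass the test. Trpv2 forms a calcium-permeable channel; it was at 55.5, 48.7 and 48.6 CPM in PBS_Tm and 30.2, 28.9 and 30.7 CPM in EV_Tm. Each EV_Tm library lay well below each PBS_Tm library, a fall of -0.77 ± 0.07 on the log2 scale (with its SE; edgeR adjusted p = 1.12e-09). Trpv3 and Trpv4 were low and did not pass (log2 fold changes -0.03 and 0.69).

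None of the 5 tested TRPM genes passed with edgeR; at an unadjusted p under 0.05 there were 3 with edgeR (Trpm3, Trpm5 and Trpm7), 0 with DESeq2 and 1 with limma-voom. Trpm7, a channel fused to a protein kinase that also carries magnesium, was at 154.0, 170.2 and 178.1 CPM in PBS_Tm and 158.0, 158.0 and 152.3 CPM in EV_Tm, so PBS_Tm replicate 1 lay among the EV_Tm libraries. Its log2 fold change of -0.10 did not pass (edgeR adjusted p = 0.0924), but it did without PBS_Tm replicate 1 (0.0049). Trpm4, the calcium-activated channel named above, was at 31.8, 26.4 and 29.3 CPM in PBS_Tm and 24.9, 28.0 and 28.4 CPM in EV_Tm. The groups overlapped, and the 95% interval of -0.28 to 0.06 holds a log2 fold change of 0 (edgeR adjusted p = 0.291). Trpm3 and Trpm5 had log2 fold changes of -0.50 and 0.61 (edgeR adjusted p = 0.0921 and 0.0851), and Trpm1 one of -0.30. Tssc4, on the opposite strand, shares 3.44% of the exon bases of Trpm5 and had a log2 fold change of 0.27.

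Piezo1, a channel opened by membrane stretch, had the most counts of the 70 genes. It was at 242.5, 212.3 and 227.7 CPM in PBS_Tm and 202.6, 229.2 and 211.2 CPM in EV_Tm, and the groups overlapped. The log2 fold change was -0.09, with a 95% interval of -0.19 to 0.02 (edgeR adjusted p = 0.164), and it passed without EV_Tm replicate 2 (0.0462) or PBS_Tm replicate 2 (0.0268). Ctu2, on the opposite strand, shares 24.6% of Piezo1's exon bases and had a log2 fold change of -0.14; whether the counting used strand is not given in the sources used here. Piezo2 reached at most 6 counts.

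P2X receptors open when ATP binds outside the cell. P2rx7, known for its low ATP affinity, fell, and P2rx4, known for its high ATP affinity, rose, although the genes are neighbours on chromosome 5, on one strand and 16111 bases apart. P2rx7 (chr5:122643911-122691432) was at 27.3, 24.6 and 25.2 CPM in PBS_Tm and 18.1, 18.7 and 16.9 CPM in EV_Tm. It was lower in all 3 EV_Tm libraries than in any PBS_Tm library (log2 fold change -0.52 ± 0.08 SE, edgeR adjusted p = 9.99e-06). P2rx4 (chr5:122707544-122729738) was at 22.2, 23.9 and 22.6 CPM in PBS_Tm and 28.0, 26.4 and 27.4 CPM in EV_Tm, a rise of 0.25 ± 0.08 on the log2 scale (with its SE; edgeR adjusted p = 0.00813). The ratio of P2rx4 to P2rx7 in CPM per kb was 0.690, 0.826 and 0.762 in PBS_Tm and 1.32, 1.20 and 1.37 in EV_Tm. P2rx7 thus stood higher in every PBS_Tm library and P2rx4 in every EV_Tm library. P2rx3 was at 3.11 CPM per kb in PBS_Tm and 2.67 in EV_Tm and did not pass (log2 fold change -0.22, edgeR adjusted p = 0.166). Ssrp1, on the opposite strand, shares 1.83% of its exon bases, held 84201 counts against 1500 for P2rx3, and had a log2 fold change of -0.27. No call was made either for P2rx1, P2rx5 or P2rx6 (log2 fold changes 0.30, -0.03 and -0.47); Slc7a4, on the opposite strand, shares 13.9% of the exon bases of P2rx6.

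The stretches upstream of P2rx7 and P2rx4, neighbours with opposite changes, are shown beside that of Trpv2, the TRP gene that fell, to set their CpG content side by side. They come from RefSeq on GRCm38.p6, all on the + strand, at chr5:122643677-122643910, chr5:122707294-122707543 and chr11:62574236-62574485, and end at the base before the deposited gene start, outside any annotated exon. Letters are lower case, 5′ to 3′, with each CG in capitals. P2rx7 holds 4 CpG in 234 bases, P2rx4 13 in 250, and Trpv2 2 in 250. RefSeq gives 2 starts for P2rx7, 1 for P2rx4 and 3 for Trpv2, and only the first by position is shown. From 250 bases before to 50 after each start, the ratio of observed to expected CpG was 0.38 and 0.2 for P2rx7. It was 0.659 for P2rx4, and 0.096, 0.106 and 0.319 for Trpv2.
P2rx7: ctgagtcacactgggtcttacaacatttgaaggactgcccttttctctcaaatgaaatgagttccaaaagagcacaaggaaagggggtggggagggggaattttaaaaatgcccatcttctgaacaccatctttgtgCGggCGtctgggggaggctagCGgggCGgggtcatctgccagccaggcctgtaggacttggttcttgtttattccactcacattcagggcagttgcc
P2rx4: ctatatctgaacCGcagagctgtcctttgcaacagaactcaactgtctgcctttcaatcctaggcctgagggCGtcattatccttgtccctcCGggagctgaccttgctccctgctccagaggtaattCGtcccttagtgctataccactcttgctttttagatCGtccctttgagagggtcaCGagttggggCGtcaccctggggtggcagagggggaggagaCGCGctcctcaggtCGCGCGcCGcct
Trpv2: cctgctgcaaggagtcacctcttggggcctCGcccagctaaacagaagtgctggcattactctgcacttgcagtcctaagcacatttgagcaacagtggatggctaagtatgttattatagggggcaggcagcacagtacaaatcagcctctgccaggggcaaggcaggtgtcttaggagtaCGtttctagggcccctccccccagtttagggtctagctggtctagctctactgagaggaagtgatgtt

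Promoter windows (250 bases before to 50 after the start) were found for 57 of the 70 genes, 76 windows in all; 11 of the 14 changed genes had one. The highest ratio of observed to expected CpG per gene had a median of 0.64 for 6 higher genes and 0.40 for 5 lower genes. For all tested genes with a window the median was 0.77. The higher and lower genes overlapped widely, from 0.109 (Cacng8) to 0.922 (Cacna2d1) and from 0.319 (Trpv2) to 1.18 (Atp2b1). Whether CpG content goes with direction was not tested. Stress motifs were searched on both strands: TGACGTGG (bound by ATF6 and XBP1), TGACGTCA, TGATGCAAT and the ER stress element by its name. No window of the 76 held any of them, and among 32851 promoters in all 0.676%, 1.79%, 0.192% and 0.119% did. This says only that these letters are not in these windows.

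Of the plasma membrane calcium pumps, Atp2b3 and Atp2b4 rose and Atp2b1 fell. Atp2b1, the pump found in most tissues, was at 195.9, 206.9 and 223.9 CPM in PBS_Tm and 173.3, 170.7 and 165.3 CPM in EV_Tm. It was lower in every EV_Tm library (log2 fold change -0.30 ± 0.05 SE, edgeR adjusted p = 8.84e-06; chr10:98914406-99026143). Atp2b3, a pump best known from neurons, was at 15.8, 16.1 and 16.3 CPM in PBS_Tm and 32.5, 30.0 and 30.4 CPM in EV_Tm. At 1.93-fold it had the largest fold of the 14 changed genes (log2 fold change 0.95 ± 0.08 SE, edgeR adjusted p = 3.08e-10; chrX:73503086-73571005). Atp2b4 was at 62.3, 62.3 and 60.5 CPM in PBS_Tm and 88.2, 87.7 and 75.4 CPM in EV_Tm, a rise of 0.44 ± 0.06 on the log2 scale (with its SE; edgeR adjusted p = 7.86e-07; chr1:133699457-133801041). Its EV_Tm replicate 3 was the lowest of that group and still above all PBS_Tm libraries. Atp2b2 reached at most 4 counts.

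Per kilobase, Atp2b1 remained the highest pump in both groups, at 13.7 CPM per kb in PBS_Tm and 11.2 in EV_Tm. Its share of the pumps' summed CPM per kb went from 62.1% ± 1.7 to 45.7% ± 0.8, that of Atp2b4 from 22.8% ± 1.3 to 28.0% ± 1.4, and that of Atp2b3 from 15.1% ± 0.4 to 26.3% ± 0.9 (SD, n = 3). The sum was 22.1 ± 0.9 CPM per kb in PBS_Tm and 24.4 ± 1.0 in EV_Tm.

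**Figure D4:**
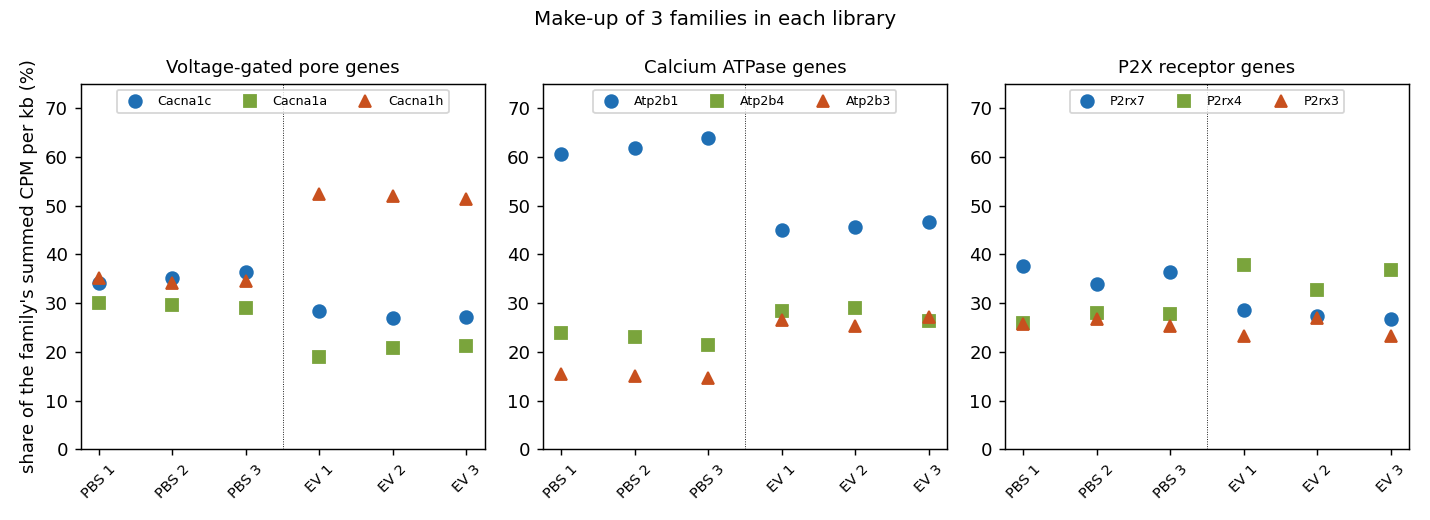
Share (percent) of each family's summed CPM per kb held by its genes in each library, for the voltage-gated pores, the Atp2b pumps and the P2X receptors. Cacna1h rises from near 35% to near 52% of the pores, Atp2b1 drops from near 62% to near 46% of the pumps, and P2rx4 and P2rx7 exchange places.

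The exchangers were low throughout. Slc8a3, a sodium-calcium exchanger, was at 2.67, 2.38 and 2.67 CPM in PBS_Tm and 2.54, 1.93 and 1.40 CPM in EV_Tm. Its log2 fold change of -0.40 (95% interval -0.91 to 0.11) did not pass (edgeR adjusted p = 0.197). Slc24a5, a potassium-dependent exchanger best known from inner membranes of pigment cells, is counted as extrusion with its family. It was at 2.17, 1.79 and 1.71 CPM in PBS_Tm and 2.79, 3.20 and 1.92 CPM in EV_Tm. The groups overlapped through EV_Tm replicate 3, and its log2 fold change of 0.48 (95% interval -0.03 to 0.99) did not pass (edgeR adjusted p = 0.119), but did without EV_Tm replicate 3 (0.0401). Myef2, on the opposite strand, shares 39.5% of the exon bases of Slc24a5 and held 26425 counts against 420 for Slc24a5. How far reads of Myef2 enter the level of Slc24a5 was not tested. Slc8a2 and Slc24a1 did not pass either (log2 fold changes 0.36 and 0.04). Summed over pumps and exchangers, extrusion genes were at 22.9, 23.3 and 24.5 CPM per kb in PBS_Tm and 27.2, 26.5 and 24.5 CPM per kb in EV_Tm. The highest PBS_Tm and the lowest EV_Tm library thus all but met. Slc24a5 gave 0.810 CPM per kb of the mean in PBS_Tm and 1.13 in EV_Tm. Pore-forming entry genes summed to 86.2, 81.0 and 83.9 CPM per kb in PBS_Tm and 74.8, 79.6 and 76.0 CPM per kb in EV_Tm, with Piezo1 and Trpm7 holding the largest levels; Trpm4 gave 2.69 and 2.50 of these means and Trpm5 0.185 and 0.284 CPM per kb. Trpc4ap, which is not a channel, was at 130.6, 128.3 and 122.2 CPM in PBS_Tm and 126.2, 130.2 and 130.1 CPM in EV_Tm (log2 fold change 0.02, 95% interval -0.07 to 0.11).

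Genes that act with these channels and pumps also changed in part. For comparison, 22.6% of all genes tested were higher in EV_Tm and 24.7% lower. Of 22 tested partners of channels and pumps, 9 rose, 4 fell and 9 did not pass (median 0.14 on the log2 scale): the calmodulin genes Calm2 and Calm3 rose (0.63 and 0.62), and Cabp1, a calmodulin-like regulator of calcium channels, fell (-0.86). Chosen after their values were seen, Bsg and Nptn, which encode subunits of the plasma membrane pumps, rose by 0.49 and 0.32, and Rem1 and Rrad, small GTPases that inhibit voltage-gated channels, rose by 0.81 and 0.58. Gem, of the same GTPase family and at a higher level (47.6 and 51.0 CPM), did not pass (log2 fold change 0.10, edgeR adjusted p = 0.187), and Rem2 was too low to test. Of 8 tested store-operated entry genes, 1 rose and 5 fell (median -0.21), among them the plasma membrane pores Orai1 and Orai2 (-0.62 and -0.68) and the regulator Saraf (-0.74). The third pore, Orai3, was at 21.3 and 21.5 CPM and did not pass (log2 fold change 0.01, edgeR adjusted p = 0.947). Of 18 tested genes of calcium transport in inner membranes, 4 rose and 6 fell (median -0.04), with the ER pumps Atp2a2 and Atp2a3 at -1.52 and -3.36 and the ER release channel Ryr1 at 1.31.

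The sodium gradient, which drives the exchangers, is kept by the sodium pump: of 15 tested genes of that list 8 rose, 1 fell and 6 did not pass (median 0.15), with the pump subunits Atp1b1 and Atp1b2 at 0.64 and 0.43. Of 13 other cation channels, 2 rose and 2 fell (median -0.12), with Hcn3, a channel opened by hyperpolarisation, at 0.89 and the stretch-gated Tmem63a at -0.46. Of 16 calmodulin-dependent kinases and calcium buffers, 2 rose and 4 fell (median 0.01), with Camk2b at 0.99, the calcium sensor Ncs1 at 0.38 and Camkk1 at -0.49. Other than for Gem and Orai3, the values given for genes of these lists are log2 fold changes of EV_Tm against PBS_Tm. Each of those genes passed at an edgeR adjusted p under 0.05. Beside the counts of these lists stand 22.6% higher and 24.7% lower over all genes tested. None of these lists was set against other genes by a test.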

How the data were processed

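Raw counts per gene were deposited by the authors in 1 table, 1 column for each of 6 libraries (EV_Tm, n = 3, and PBS_Tm, n = 3). Per the labels' protocols, reads were aligned with HISAT2 2.2.1 after quality control and adaptor removal; featureCounts 2.0.6 and the build mm39 are named in the submitters' processing notes. The strand setting, the treatment of multi-mapping reads and the annotation were not given in the sources used here. Of 54409 gene IDs shared with GENCODE M21, 98.33% had the same start and end as on GRCm38, as had 67 of the 70 members, so deposited positions are read as GRCm38.

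Counts were tested with edgeR 4.0.16 in R 4.3.3 (TMM scaling, filterByExpr, quasi-likelihood test, Benjamini-Hochberg adjustment over 16844 genes, threshold 0.05), after a check on simulated data. Between 28654248 and 32550268 counts per library and a biological coefficient of variation of 6.05% set the precision. CPM used TMM-scaled library sizes, and levels between genes used CPM per kb of the deposited gene length. Alternatives were DESeq2 1.42.0 (size factors and test), limma 3.58.1 (voom), library size alone, other filters, protein-coding genes alone, a replicate block, a stricter threshold, a 2-fold minimum and each library left out. Same-numbered libraries of the groups did not deviate together (correlations -0.043, 0.016 and -0.014), and the labels give no shared origin, so the numbers were not taken as pairs.

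Values in each library are given for members that passed with a mean of at least 1 CPM, for those with a mean of at least 10 CPM and for the highest of each role; from each pathway list, up to 3 genes with the smallest p among those that passed are named. A gene that this rule names is not reported here. Members, lists and tests were chosen with earlier results of these data known. Marker lists covered beta cell, other islet and exocrine, mesenchymal, and immune and endothelial genes. The 95% intervals come from the edgeR fit and include the spread between libraries; the limit of 3 counts covers counting error only.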

Additional observations from a re-analysis of the deposited data

How the results depend on the processing

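Of the 14 changed genes, 12 kept their call and direction in all 14 settings in which each gene was refitted; Cacna2d1 and Cacng7 lost it when some single libraries were left out. None of the 14 changed direction in any of them. Over all 36 tested genes, 466 of 496 results of a gene in a setting kept both direction and side of the threshold, and 18, from 7 genes that did not pass, changed sign. Sign changes were to 0.01 with library size alone (P2rx5, Trpv3, Cacnb1), to 0.01 (P2rx5, Trpv3) and 0.00 (Cacnb1) with protein-coding genes alone, and for Trpv3 to 0.21 with limma-voom and 0.10 with the replicate block. With a library left out, the log2 fold change ranged from -0.10 to 0.06 for P2rx5, -0.41 to 0.67 for Trpv3, -0.10 to 0.47 for Cacna2d3, -0.01 to 0.04 for Trpc4ap, -0.56 to 0.81 for Slc24a1 and -0.33 to 0.79 for Slc8a2. DESeq2, limma-voom, DESeq2 size factors, library size alone, no filter and protein-coding genes alone each gave 8 higher and 6 lower. With the replicate block the counts were also 8 and 6, and 3679 higher and 4058 lower over all genes; the numbers share no more than a label. At a fold of at least 2, 553 genes were higher and 453 lower over all genes, and 0 of the calcium genes, entry and extrusion genes alike in either direction. Leaving out each library in turn gave 3277 to 3616 higher and 3785 to 4092 lower over all genes, 6 to 9 and 6 to 8 calcium genes, 4 to 7 and 5 to 7 entry genes, and 2 to 3 and 1 to 1 extrusion genes. Genes that passed only in such a setting were Piezo1, Trpm7, Slc24a5, Cacnb4 (log2 fold change -0.40 without EV_Tm replicate 1) and, under 1 CPM, Cacna1g (-2.34 without EV_Tm replicate 2) and Trpv4 (3.05 without PBS_Tm replicate 1); the cause was not tested. A filter of 1 CPM in 3 libraries left 8 of the 36 untested, none of them among the changed genes. None of the 8 tested genes under 1 CPM in both groups passed, and their intervals were wide at this depth.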
